A study of Saccharomyces cerevisiae with 180 samples.

Results

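The genes described are 8 budding yeast genes for hexose uptake and glucose sensing: the transporters HXT1, HXT2, HXT3, HXT4, HXT5 and HXT8 and the sensors SNF3 and RGT2. They were chosen by name, and for each one every nucleosome of the deposited atlas whose centre lies in the open reading frame (ORF) or up to 500 bp upstream of its start codon was taken. This gave 103 of 65032 nucleosomes with counts, and 8 of 5989 protein-coding genes. By textbook roles in glucose medium, HXT1 and HXT3 are called glucose-induced here, HXT2, HXT4, HXT5, HXT8 and SNF3 glucose-repressed, and RGT2 a constitutive sensor.

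Yeast takes up glucose by facilitated diffusion through the Hxt family of membrane proteins. Snf3 and Rgt2 resemble transporters but act as receptors. When glucose binds them, the Yck kinases, the corepressors Mth1 and Std1 and the ubiquitin ligase subunit Grr1 pass the signal on, and the repressor Rgt1 leaves the HXT promoters. Abundant glucose also keeps the kinase Snf1 inactive, so that the repressor Mig1 holds genes for scarce sugar and for other carbon sources off. On active genes histone H3 is trimethylated at lysine 4 (K4me3) near the start and at lysine 36 (K36me3, made by Set2) along the body, with trimethylation of lysine 79 (K79me3) in the body and acetylation of lysine 18 (K18ac) near the start.

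Mononucleosomes from cells in YPD, a rich glucose medium, were bound by a first antibody and then by a second antibody or kept as Input. The first set of 120 libraries covers strains with a lysine to arginine substitution in H3 (H3K4R, H3K18R, H3K36R) and the strain WT H3. The second set of 60 libraries covers strains labelled set2 and eaf3 (Eaf3 is the Rpd3S subunit that binds methylated lysine 36) and the strain labelled bar1, titled as wild type. A strain, a first antibody and a second step together name 1 library, so no value has a replicate and no test of a difference was possible. Intervals are 95% intervals that cover counting error only, and differences of at least 2-fold are named by size. The intervals are exact except those of differences of medians, which are normal approximations.

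The 180 libraries held 150 to 2693698 reads each, with a median of 110476.5, and 32 held fewer than 10000. SET2 had 7.67 CPM (reads per 1000000 of the library) in the strain set2 and 252 CPM in bar1, and EAF3 had 6.73 CPM in eaf3 and 108 CPM in bar1. The strain labelled bar1 carried 125 CPM on BAR1, against 159 CPM in WT H3, and 0.729 CPM on NAM7, against 371 CPM in WT H3. NAM7 was looked at after its values were seen, and the label bar1 is kept only as a name. H3K4R with K4me3 as first antibody held 3639 reads, and bar1 with K79me3 held 10044 reads with 7 on the 8 genes. Neither was used for single genes. HXT genes are similar in sequence, and how reads that align to several of them were assigned is not given in the sources used here.

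In the S. cerevisiae R64 gene table, which has the same build as the sacCer3 nucleosome atlas, 3 of the transporters are neighbours on chromosome VIII: HXT4 (YHR092C, 287081 to 288811), HXT1 (YHR094C, 290913 to 292625) and HXT5 (YHR096C, 294669 to 296447), all on the minus strand. HXT3 (YDR345C) lies at 1162957 to 1164660 of chromosome IV, also on the minus strand. The sensors SNF3 (YDL194W, 111580 to 114234) and RGT2 (YDL138W, 213351 to 215642) are on the plus strand of chromosome IV. HXT2 (YMR011W) lies at 288079 to 289704 of chromosome XIII and HXT8 (YJL214W) at 26887 to 28596 of chromosome X, 26887 bp from the chromosome end, both on the plus strand. All windows are coding sequence plus upstream DNA, and 1 upstream nucleosome of HXT4 lies in the annotated gene AHT1. The windows held 11 nucleosomes each at HXT1 and HXT2, 12 at each of HXT3, HXT4, HXT5 and HXT8, 16 at RGT2 and 17 at SNF3.

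The upstream windows of the glucose-induced transporters held few H3 reads. Summed over the 4 H3 libraries with Input of the first set, HXT1 had 10 H3 reads upstream and HXT3 had 6, which 10.3% and 4.78% of all genes fell below. Upstream H3 reads at the glucose-repressed members were 15 at HXT2, 36 at HXT4, 28 at HXT5, 19 at HXT8 and 21 at SNF3, and RGT2 had 25. The median of all genes was 23, and 85.5% of genes fell below HXT4. These are sums over upstream nucleosomes, of which HXT3 and HXT2 had 1 and the other members and the median gene 2. Per upstream nucleosome HXT1 had 5 H3 reads and HXT3 had 6. The glucose-repressed members had between 9.5 (HXT8) and 18 (HXT4) by this measure, and RGT2 had 12.5. Within the ORFs the members were close together, with 13.8 H3 reads per nucleosome at RGT2 and 19.5 at HXT2 as the lowest and highest values, against a median of 14.3 over all genes.

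In WT H3 with Input as the second step, K4me3 separated the glucose-induced from the glucose-repressed members, and K18ac did not. Levels are log2 ratios of a mark's library share to that of H3 with Input, both over the whole window with 0.5 reads added. The all-gene medians of this ratio were 0.37 for K4me3, 0.22 for K18ac, -0.13 for K36me3 and -0.04 for K79me3, so a level is read against those. HXT1, the low-affinity transporter made in abundant glucose, had 236 K4me3 reads (311 CPM) against 37 H3 reads (198 CPM), a level of 0.64 (0.15 to 1.20). HXT3, also of low affinity, had 238 K4me3 reads and 38 H3 reads, a level of 0.61 (0.13 to 1.16). Both lay above the all-gene median, at the 62.1 and 60.7 percentiles, with intervals that include it.

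All 5 glucose-repressed members lay below that median with intervals that exclude it. HXT2, a high-affinity transporter induced by scarce glucose, had the highest K4me3 level among them, -0.36 (-0.93 to 0.27), from 102 K4me3 and 32 H3 reads. SNF3, the sensor of low glucose, had 90 K4me3 and 47 H3 reads and a level of -1.09 (-1.61 to -0.54). HXT4, another transporter induced by scarce glucose, stood at -1.39 (-2.03 to -0.71) with 53 K4me3 and 34 H3 reads. HXT8, a transporter expressed at low levels, stood at -1.49 (-2.13 to -0.83) with 52 K4me3 and 36 H3 reads. The lowest was HXT5, a transporter of slow growth and non-fermentable carbon, with 23 K4me3 and 39 H3 reads and a level of -2.77 (-3.59 to -2.001), at the 0.735 percentile of genes. HXT8 stood 1.27 above its neighbour HXT5 in this order (0.26 to 2.34), an interval of the difference that excludes 0. Between HXT4 and HXT8 the difference was 0.11 (-0.83 to 1.05), between SNF3 and HXT4 0.30 (-0.56 to 1.15) and between HXT2 and SNF3 0.73 (-0.08 to 1.56), and these intervals include 0. RGT2, the sensor of high glucose, had 263 K4me3 and 50 H3 reads, a level of 0.36 (-0.07 to 0.84) at the 49.7 percentile. It stood 0.73 above HXT2 (-0.05 to 1.48), and HXT3 and HXT1 stood 0.25 (-0.44 to 0.95) and 0.27 (-0.42 to 0.99) above it.

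**Figure D1:**
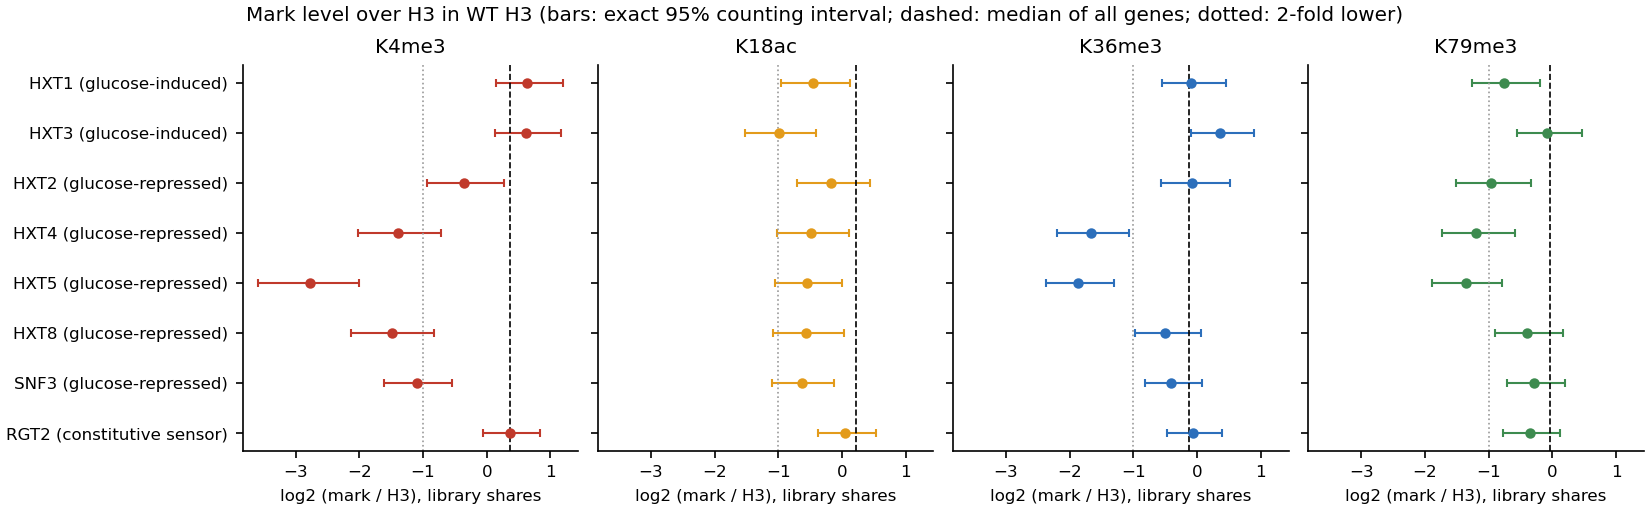
Level of each mark at the 8 genes in WT H3, as log2 of the mark's library share over that of H3 with Input; points are 1 library each, bars the exact 95% counting interval, the dashed line the median of all genes and the dotted line 2-fold lower than H3. In the K4me3 panel HXT1 (0.64) and HXT3 (0.61) lie above the dashed line and the 5 glucose-repressed genes below it, down to -2.77 at HXT5.

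Taken as a difference of medians, the glucose-induced members stood 2.01 higher in K4me3 than the glucose-repressed ones on the log2 scale (1.30 to 2.72, counting error). The same difference was 0.63 (0.04 to 1.23) in K36me3 and 0.54 (-0.11 to 1.20) in K79me3. In K18ac it was -0.17 (-0.79 to 0.46). The intervals of these differences take the counting error of the glucose-repressed side from its middle gene alone. In this strain with Input, K4me3 had the widest gap of the 4 marks and passed 2-fold. The K36me3 gap passed 2-fold as well with HXT2 and HXT4 alone as the repressed members (1.005) or without HXT8 (1.17). The members are not replicates of a state, and 2 against 5 genes give no test.

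Counted by size, 4 of 8 members had K4me3 at least 2-fold under H3 (HXT4, HXT5, HXT8 and SNF3), against 9.22% of all genes. In K36me3 this held for 2 of 8 (HXT4 and HXT5, background 21.2%) and in K79me3 for the same 2 genes (background 11.5%). For K18ac it held for 0 of 8 (background 3.19%), with HXT3 lowest at -0.99 (-1.53 to -0.41) from 107 K18ac reads. HXT3 passed 2-fold in K18ac over the ORF alone, at -1.06. In K79me3 HXT4 stood at -0.71 over the ORF alone, and over the first 1000 bp HXT4 and HXT5 stood at -0.67 and -0.92, so their K79me3 counts depend on the window. Over the whole window HXT4 and HXT5 were low in every methylation mark, with K36me3 at -1.67 (-2.20 to -1.07) and -1.87 (-2.38 to -1.31) and K79me3 at -1.19 (-1.74 to -0.58) and -1.36 (-1.88 to -0.79). HXT8 and SNF3 were low in K4me3 while their K36me3, -0.50 and -0.41, and their K79me3, -0.40 and -0.28, had intervals that include the all-gene median.

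The gap held over libraries of other antibody combinations. For these values each library was set against H3 with Input summed over 4 strains, and libraries under 10000 reads were left out. In WT H3 the 10 libraries with K4me3 in either step had a median difference of 1.98, ranging from -0.26 to 3.24, and in 8 of them both glucose-induced genes lay above all 5 glucose-repressed ones. With K4me3 the median was 2.08 in H3K36R (10 libraries, all above 0), 1.89 in H3K18R (6 of 7 above 0), 1.07 in set2 (8 of 8 above 0), 1.33 in eaf3 (8 of 8 above 0) and 1.10 in bar1 (6 of 7 above 0). H3 itself, with Input or H3 as second step, differed by 0.15 and 0.30 in WT H3. In the substitution strains it ran from -0.36 (H3K18R with Input) to 0.54 (H3K36R with H3 in both steps). The H3 libraries with Input are part of the summed H3, which draws their values towards 0. H3K4R, which cannot carry the mark, had 1 library with K4me3 in either step, at -1.58 from 11 reads on the 8 genes. The other values below 0 with K4me3 also rested on few reads, 12 in WT H3, 13 in H3K18R and 15 in bar1. Thin libraries lay above 0 too, such as K4me3 followed by K36me3 in H3K36R, at 2.74 from 5 reads. The gap was not particular to K4me3 in these libraries. For combinations with K36me3 the median was 1.79 in eaf3 (8 of 8 above 0), 1.14 in bar1 (6 of 6) and 1.17 in WT H3 (9 of 10), and with Input the gap in K36me3 was 2.00 in eaf3 and 1.20 in bar1, against 0.87 and 1.10 in K4me3. The set of each mark also holds its pairs with K4me3. For K36me3 these stood at 2.73 and 2.86 in WT H3, 2.65 and 2.10 in eaf3 and 2.03 and 1.82 in bar1. With K36me3 in both steps the gap was 0.82 in WT H3, 2.36 in eaf3 and 1.08 in bar1. In H3K36R, which lacks lysine 36, the K36me3 antibody gave a median of 2.19 (7 of 8 above 0), and 2.36 with Input. In set2, which lacks the enzyme, the median was 0.95 (4 of 6 above 0). There K36me3 with Input stood at 0.82 (35 reads on the 8 genes) and K36me3 followed by K79me3 at 1.23 (29 reads). The pairs with K4me3 stood at 1.33 and 1.07, and K18ac or K79me3 followed by K36me3 at -1.24 and -1.22. The gap with this antibody was thus seen in H3K36R, which cannot carry the mark, while the set2 libraries were split. For K79me3 the median was 1.05 in WT H3 (10 of 10 above 0) and 0.37 in bar1 (2 of 4). In bar1 the value of K79me3 with Input, -1.37, rested on 7 reads on the 8 genes. K79me3 as second step stood there at -0.05 after K18ac, 0.79 after K4me3 and 0.95 after K36me3. For combinations with K18ac the median ran between -0.09 in bar1 and 1.06 in WT H3, and in set2 3 of 7 libraries were above 0. In WT H3 the gap was -0.08 for K18ac with Input and 0.04 for K18ac in both steps, but 1.06 for K18ac followed by H3, 1.49 followed by K36me3 and 1.34 followed by K79me3. The libraries share antibodies, and many share the first immunoprecipitate, so they are not independent repeats.

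**Figure D2:**
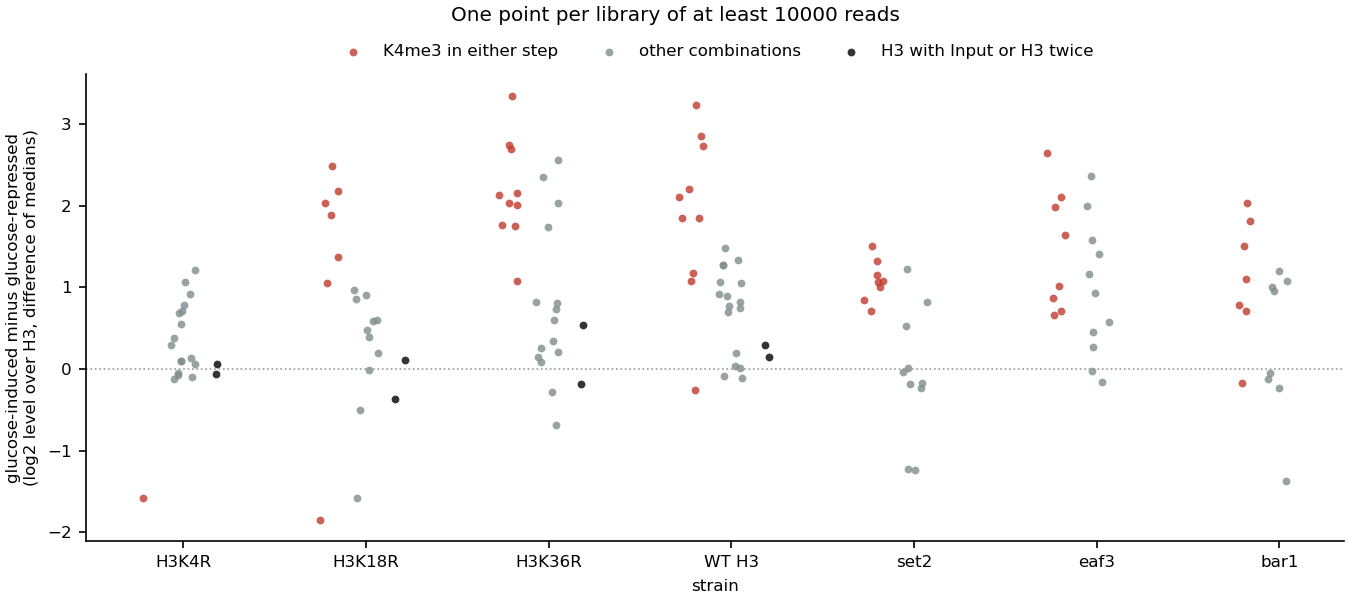
Difference of medians between the glucose-induced (HXT1, HXT3) and the glucose-repressed members (HXT2, HXT4, HXT5, HXT8, SNF3), as log2 level over H3, 1 point per library of at least 10000 reads, by strain; red marks libraries with K4me3 in either step. In WT H3 the red points have a median of 1.98, and the black points of H3 alone are at 0.15 and 0.30. In the other strains of the first set the black points run from -0.36 to 0.54.

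Along the genes K4me3 peaked near the start codon at HXT1, HXT3, SNF3 and RGT2, while K36me3 was higher in the body. On successive nucleosomes from 44 bp before the HXT1 start codon (centre at -44) to 1616 bp after it, K4me3 reads were 24, 35, 34, 29, 27, 25, 23, 16, 9 and 9, and K36me3 reads were 7, 18, 26, 37, 51, 54, 56, 53, 85 and 80. K4me3 thus peaked in the first nucleosome of the ORF and fell to the 3′ end while K36me3 climbed. At HXT3 the K4me3 peak was 46 reads (60.6 CPM) on the nucleosome at 225 bp, and K36me3 stayed between 63 and 77 reads from 548 bp on. RGT2 peaked at 149 bp with 50 K4me3 reads (65.9 CPM), and its K36me3 peaked with 71 reads at 633 bp and was 31 reads at 2197 bp. SNF3 peaked at 163 bp with 19 (25.0 CPM). The low K4me3 of SNF3 over its window was thus a short peak followed by 12 body nucleosomes with 0 to 6 reads each, while its K36me3 in the body was 29 to 41 reads per nucleosome.

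HXT8 had the reverse layout. From 348 bp upstream to 1643 bp into the ORF, its K4me3 reads were 0, 1, 0, 2, 2, 2, 2, 3, 7, 6, 11 and 16, and its K36me3 reads were 21, 23, 29, 42, 48, 54, 46, 34, 21, 13, 11 and 3. K4me3 was therefore highest on the last nucleosome of the gene and K36me3 lowest there. K79me3 followed K36me3, with 34 reads at 751 bp and 7 and 11 reads on the last 2 nucleosomes. Upstream of HXT8 there were 44 K36me3 reads, a level over the summed H3 at the 87.8 percentile of all genes, and 1 K4me3 read, at the 2.94 percentile. The next coding gene downstream of HXT8 in the table is YJL213W, which starts 3566 bp further on the same strand, and IMA5 lies 800 bp upstream on the other strand.

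**Figure D3:**
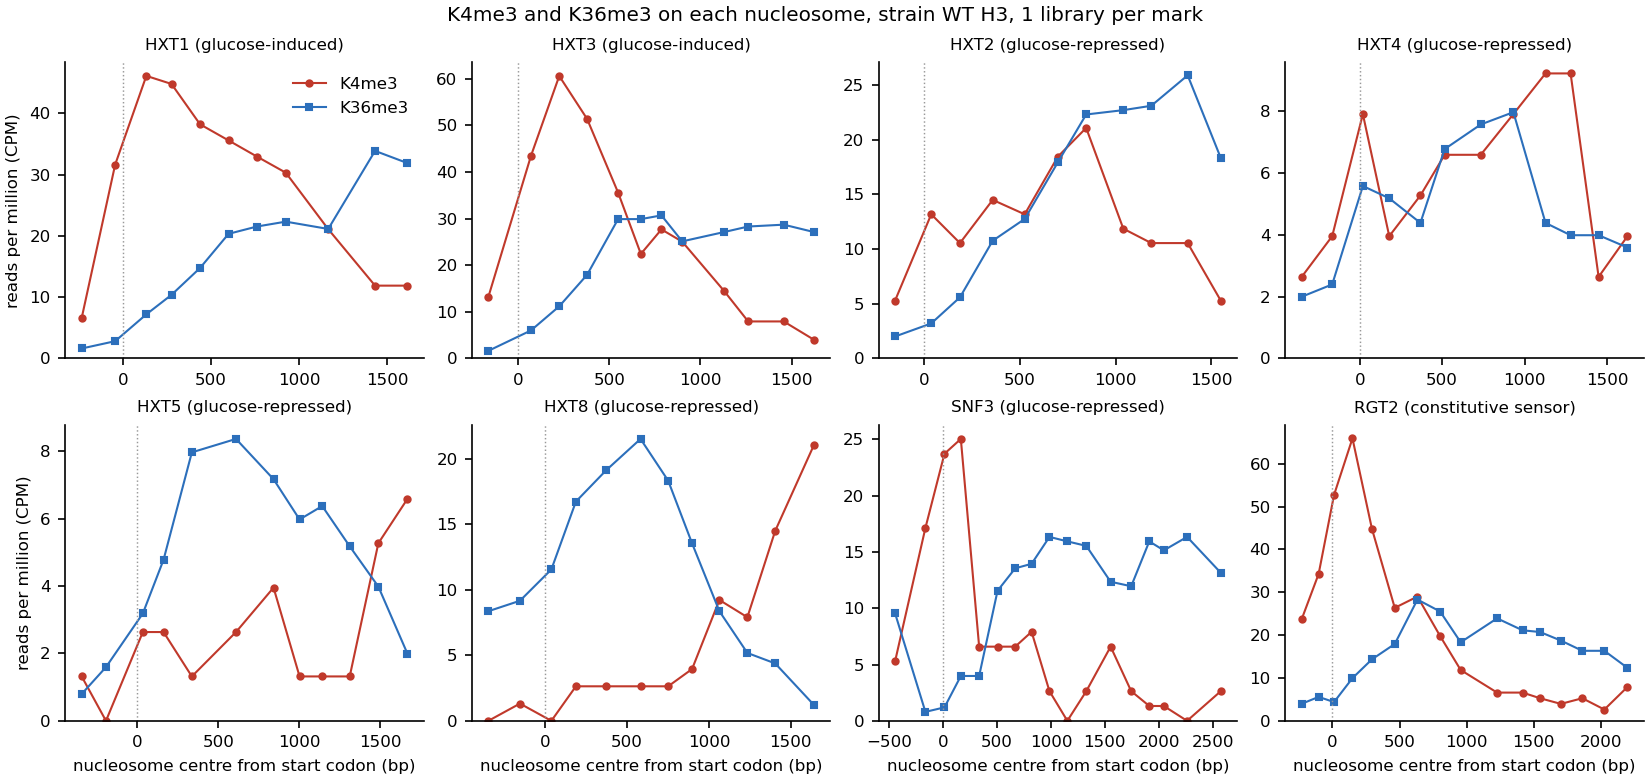
K4me3 (red) and K36me3 (blue) in CPM on each nucleosome of the 8 genes in WT H3, by distance of the nucleosome's centre from the start codon in bp; each line is 1 library, and each panel has its own vertical scale. At HXT8 the 2 curves are exchanged against HXT1, HXT3, SNF3 and RGT2, with K4me3 highest on the last nucleosome (21.1 CPM) and K36me3 highest at 582 bp (21.5 CPM).

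To put numbers on this layout, reads in the last 500 bp of the ORF were divided by those in the first 500 bp, a measure chosen after the profiles were seen. For K4me3 in WT H3, HXT8 had 33 late and 4 early reads, a log2 ratio of 2.90 (1.55 to 5.00). HXT5 had 10 late and 5 early reads and 0.93 (-0.68 to 2.90), which does not exclude an even spread. These were the 2 of 8 members with more late than early K4me3 reads, and 6.41% of genes of at least 1500 bp had this order. HXT4 and HXT2 were nearly even, at -0.11 (-1.38 to 1.13) and -0.53 (-1.44 to 0.34). HXT1, HXT3, RGT2 and SNF3 had ratios of -2.41, -2.93, -3.53 and -4.09, around the all-gene median of -2.97.

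The strain bar1 gave the same 2 members. There HXT8 had 36 late and 3 early K4me3 reads, a ratio of 3.38 (1.92 to 5.93), and HXT5 had 18 and 3, a ratio of 2.40 (0.81 to 4.99), where 7.85% of genes had more late than early reads. In H3K18R, HXT8 had 31 late and 2 early K4me3 reads and HXT5 had 26 and 2. In H3K36R, HXT8 had 50 and 3, and HXT5, HXT2 and HXT4 also had more late than early reads, at 22 and 10, 54 and 22, and 19 and 14. Over all 10 WT H3 libraries with K4me3 in either step, HXT8 had more late than early reads in 10, with 117 late and 9 early reads in sum, and in bar1 in 6 of 7, with 210 and 45.

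For K36me3 the HXT8 ratio was -2.12 (-2.80 to -1.53) in WT H3, from 27 late and 119 early reads, where the all-gene median was 1.02 and 0.71% of genes were lower. It was -2.36 (-3.39 to -1.54) in H3K18R, -1.33 (-2.03 to -0.69) in H3K4R and -1.63 (-2.87 to -0.62) in eaf3. The bar1 library had 10 late and 8 early K36me3 reads at HXT8, a ratio of 0.30 (-1.17 to 1.87), so the falling K36me3 of HXT8 was not seen there. Other members also had another K36me3 layout in bar1 than in WT H3, with -0.79 (-1.79 to 0.13) at HXT1 and -1.33 (-2.47 to -0.37) at RGT2, against 1.02 and -0.05 in WT H3. HXT5 and HXT4 had flat K36me3 in WT H3, at -0.51 (-1.27 to 0.22) and -0.38 (-1.14 to 0.35). HXT2, with 1.78 (1.32 to 2.28), rose to its 3′ end more steeply than the all-gene median.

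**Figure D4:**
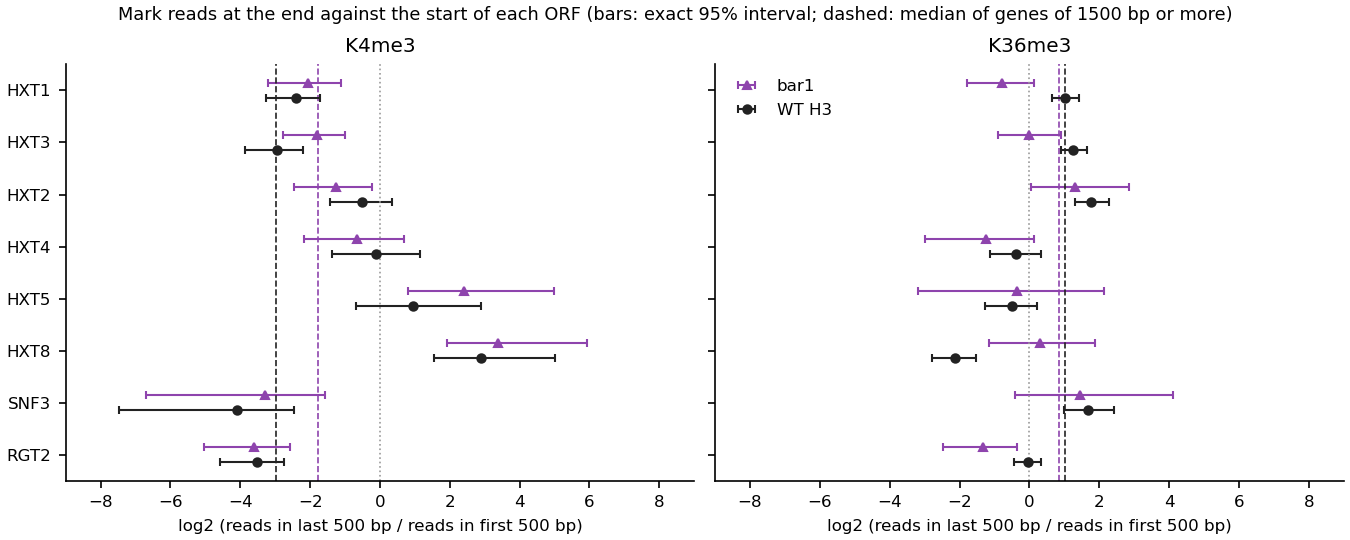
Log2 ratio of reads in the last 500 bp to reads in the first 500 bp of each ORF for K4me3 and K36me3, in bar1 (triangles) and WT H3 (circles), 1 library each; bars are exact 95% counting intervals, dashed lines the median of genes of 1500 bp or more in each strain. HXT8 lies at 3.38 and 2.90 for K4me3, to the right of 0, while SNF3 and RGT2 lie left of -3.

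In WT H3, HXT4 had a K18ac maximum at its 3′ end. Its last nucleosome, at 1624 bp, held 31 K18ac reads in WT H3, where the other 11 held 5 to 14. It held 16 K18ac reads in H3K4R, 25 in H3K36R and 46 in bar1, the most of the gene there too, but by small margins. The next highest nucleosomes held 15 reads in H3K4R (at 1279 bp), 24 in H3K36R (at 1449 bp) and 44 in bar1 (at 1127 bp). In set2 and eaf3, with 22 and 23 reads, other nucleosomes of HXT4 held more. The gene MSR1 begins on the same strand after a gap of 310 bp.

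Recovery by both antibodies in turn also separated the members, but not always further than the first antibody with Input. In WT H3 the gap was 2.11 for K4me3 with Input. In the pairs with K4me3 it ran from 1.08 (K4me3 followed by K18ac) to 3.24 (K79me3 followed by K4me3). In K18ac followed by K4me3 the highest glucose-repressed gene lay above the lowest glucose-induced one. In WT H3 all 12 ordered pairs of different marks had at least 10000 reads, and each was set against H3 with Input of 4 strains. HXT4, HXT5, HXT2 and SNF3 were below the all-gene median in 12 of 12 pairs, and HXT8 in 11 of 12. HXT1 and HXT3 were above it in 6 of 12 each, and RGT2 in 7. Over the 6 pairs with K4me3 the median log2 recovery was 0.34 at HXT1, 0.22 at HXT3 and 0.21 at RGT2. It was -0.94 at HXT2, -1.14 at HXT8, -2.18 at SNF3, -2.52 at HXT5 and -2.57 at HXT4.

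The counts behind these values were small, and some were 0. K4me3 followed by K36me3, the pair of a start mark and a body mark, left 31 reads at HXT1, 17 at HXT3 and 30 at RGT2. The glucose-repressed members had 13 at HXT2, 6 at HXT8, 4 at SNF3 and 0 at both HXT4 and HXT5. Against the H3 share of each gene, and with a floor of 3 reads per library for a count of 0, recovery in that library was at least 4.67-fold lower at HXT4 and at least 5.26-fold lower at HXT5. In the other order, K36me3 followed by K4me3, HXT1 had 110 reads, HXT3 106 and RGT2 108, while HXT2 had 61, HXT8 28, SNF3 21, HXT5 18 and HXT4 10. Both orders thus placed HXT1, HXT3 and RGT2 above all 5 glucose-repressed genes.

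SNF3 differed from HXT4 and HXT5 in the pairs without K4me3. Over those 6 pairs its median was -0.66, against -2.18 with K4me3, and K36me3 followed by K79me3 left 121 reads. In that library HXT4 had 25 reads and HXT5 had 46, with 120 and 136 reads to be drawn from H3. HXT8 likewise had 87 of 114 reads in this pair, and a median of -0.59 without K4me3. Set against the first antibody with Input in place of H3, SNF3 kept 50 reads over its 6 K4me3 pairs where 158 would be drawn, a ratio of 0.32, and HXT4 kept 28 of 72.1, a ratio of 0.39. For HXT1 that ratio was 1.33, for RGT2 0.97 and for HXT3 0.94. It was 0.85 at HXT2, 0.67 at HXT8 and 0.51 at HXT5, so HXT2 lay near HXT3 in this measure.

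**Figure D5:**
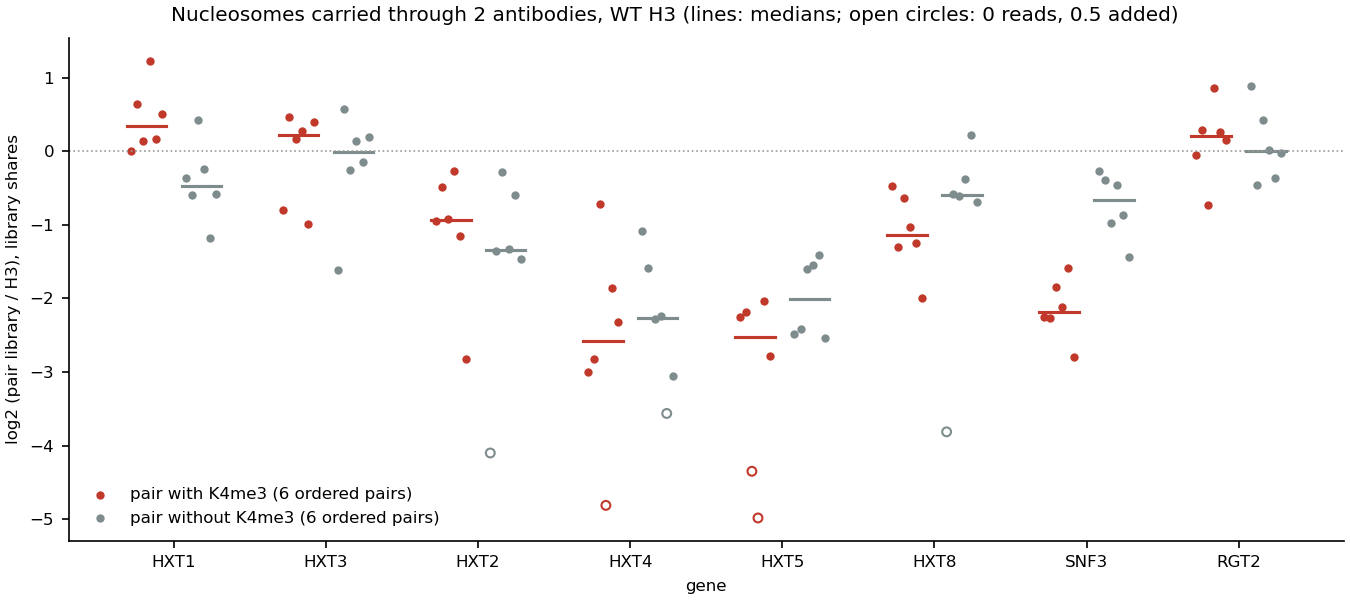
Log2 recovery of each gene in the 12 ordered two-antibody libraries of WT H3 over H3 with Input of 4 strains; red points are pairs with K4me3, grey points pairs without it, lines their medians, and open circles libraries with 0 reads at the gene, drawn with 0.5 reads added. The red median is 0.34 at HXT1 and -2.57 at HXT4, and the gap between the red and grey medians is widest at SNF3 (-2.18 and -0.66).

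Strain differences were read over the whole window first. In each comparison the change was read against the all-gene median of the same library pair, and 14 comparisons of a mark with Input were made in which the marked lysine and its enzyme were present in both strains. In H3K4R over WT H3, HXT4 was the 1 of 8 members at least 2-fold from that median in K36me3, where 0.971% of genes were. No member was in K18ac (0.135% of genes) or K79me3 (0.299%). In H3K18R over WT H3, HXT5 was the 1 of 8 in K4me3 (0.598% of genes), and no member was in K36me3 (0.537%) or K79me3 (0.321%). No member passed in H3K36R over WT H3 for K4me3 (2.57%), K18ac (0.644%) or K79me3 (0.873%), nor in set2 over bar1 for K4me3 (3.03%) or K18ac (0.504%), nor in eaf3 over bar1 for K4me3 (3.03%), K18ac (0.453%) or K36me3 (2.23%). Over the first 1000 bp of the ORF 6 changes passed 2-fold, against 2 over the whole window. In K36me3 of H3K4R these were HXT4, with 205 reads against 94 in WT H3 (1.11), and HXT5, with 164 against 79 (1.04), where 1.4% of genes passed. In K4me3 of set2 they were HXT5, with 31 reads against 6 in bar1 (2.003), and HXT8, with 58 against 20 (1.24, background 3.47%). In K4me3 of eaf3 HXT5 had 51 reads against 6 in bar1 (1.73, background 3.39%), and in K4me3 of H3K18R HXT8 had 17 reads against 11 in WT H3 (1.18, background 0.809%). HXT5 in set2 and HXT8 in H3K18R had fewer than 50 reads over this stretch.

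HXT4 had 353 K36me3 reads (131 CPM) in H3K4R and 145 (57.8 CPM) in WT H3, a log2 change of 1.18 (0.90 to 1.47), or 1.21 above the all-gene median. All 8 K36me3 combinations were above their all-gene median there, with a median of 1.15. On its nucleosomes from 179 to 515 bp, K36me3 reads were 33, 44 and 44 in H3K4R, against 13, 11 and 17 in WT H3. As a yardstick, bar1, which has lysine 4, had 39 reads (112 CPM) and stood 0.97 above WT H3 at HXT4. In H3K18R the same gene stood 0.71 above WT H3, so WT H3 was the lowest of these 4 strains. HXT5 stood 0.82 above the all-gene median in H3K4R as well, in 6 of 8 combinations. HXT8 moved the other way in H3K4R, with 233 K36me3 reads (86.5 CPM) against 345 (138 CPM) in WT H3, 0.63 below the all-gene median and below it in 7 of 8 combinations.

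HXT5 had 51 K4me3 reads (97.0 CPM) in H3K18R and 23 (30.3 CPM) in WT H3, 1.68 above the all-gene median (0.96 to 2.47). Most of those reads lay at the 3′ end, where its last 4 nucleosomes held 7, 9, 7 and 10 in H3K18R and 1, 1, 4 and 5 in WT H3. Over the first 1000 bp of the ORF the change was 0.09, and the median over 7 K4me3 combinations was 0.72 with 5 of 7 above the all-gene median. The strain bar1 stood 0.97 above WT H3 in K4me3 at HXT5 and 0.94 above it at HXT8.

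In set2 and eaf3 both sensor genes had more of their K4me3 reads in the body than in bar1 in the libraries with Input. As log2 of body over first 500 bp reads, the ratio at RGT2 was 1.23 in set2 and 0.99 in eaf3, against -0.73 in bar1, changes of 1.96 and 1.72. For SNF3 the changes were 1.52 and 1.35, and the all-gene median moved by 0.93 and 0.88. Over 7 combinations with K4me3 the RGT2 ratio was higher than in bar1 in 5 in set2 and 6 in eaf3, but that of SNF3 in 3 and 4. In set2 the ratio of HXT3 changed by 0.86, of HXT2 by 0.66, of HXT4 by 1.46 and of HXT1 by -0.19. In eaf3 these changes were 0.52 at HXT3, 0.77 at HXT2, 0.64 at HXT4 and -0.12 at HXT1. The changes of HXT1, HXT2 and HXT3 thus lay below that of the all-gene median in both strains, HXT1 the furthest, and that of HXT4 did so in eaf3. The distances of HXT3 in set2 (0.86 against 0.93) and HXT2 in eaf3 (0.77 against 0.88) were small. No intervals are given for these changes, so such distances are not read as differences. In other combinations HXT1 was higher than in bar1 in 5 of 7 in each strain and HXT4 in 3 of 7. For K18ac the members' changes were smaller, between -0.72 and 0.71, while the all-gene median moved by 0.64 for set2 and 0.52 for eaf3.

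HXT8 and HXT5, the members with K4me3 at their 3′ ends, changed the other way. The first 500 bp of HXT8 held 25 K4me3 reads (29.5 CPM) in set2 and 34 (20.2 CPM) in eaf3, against 3 (5.13 CPM) in bar1 and 4 (5.27 CPM) in WT H3. That of HXT5 held 22 (26.0 CPM) in set2 and 40 (23.7 CPM) in eaf3, against 3 (5.13 CPM) in bar1 and 5 (6.59 CPM) in WT H3. Relative to the all-gene median over bar1 this is 2.72 and 2.17 at HXT8 and 2.54 and 2.40 at HXT5. HXT8, HXT5 and no other member were at least 2-fold above that median in this zone, where 5.45% of genes in set2 and 5.23% in eaf3 were. The body to start ratio accordingly differed from that in bar1 by -2.61 (set2) and -2.09 (eaf3) at HXT8 and by -1.56 and -1.75 at HXT5.

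Other libraries did not repeat this change at HXT8. With K4me3 in both steps the first 500 bp of HXT8 held 12 reads in set2 and 14 in eaf3, against 15 in bar1, which is -0.37 and -0.91 relative to the all-gene median. HXT8 was above that median in 1 of 7 combinations with K4me3 in set2 and in 4 of 7 in eaf3. HXT5 was above it in 6 of 7 in set2, with a median of 1.23, and in 3 of 7 in eaf3, with a median of -0.12. The change in the first 500 bp was chosen after the values were seen and rests on 3 reads per gene in bar1.

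In set2 all 8 members lay above the all-gene median in K4me3 with Input, by 0.02 to 0.89, but over 7 combinations HXT8 did so in 3 and HXT4, HXT5 and RGT2 in 4 each. Some smaller differences recurred over combinations. HXT2 had 152 K4me3 reads (180 CPM) in set2 and 268 (159 CPM) in eaf3, against 64 (109 CPM) in bar1, 0.82 and 0.65 above the all-gene median. It was above that median in 6 of 7 combinations in set2 and in 7 of 7 in eaf3. In eaf3, K36me3 of SNF3 was 0.46 below the all-gene median and that of HXT8 0.68 below it, each below it in 6 of 6 combinations. K4me3 of HXT8 in eaf3 was below it in 7 of 7, by 0.41 at the median.

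Other genes of the pathway were described in WT H3 by fixed lists. Among 11 other hexose transporters, most of them expressed at low levels in abundant glucose, the median K4me3 level was -2.09, and 9 of 11 were at least 2-fold under H3. HXT9 had the lowest level with -3.38 (-4.22 to -2.63), followed by HXT10 with -2.96 (-3.64 to -2.34) and HXT16 with -2.68 (-3.41 to -1.98). The low K4me3 level was thus shared by transporter genes outside the 8. These genes include near-identical copies, whose reads could be shared. In K36me3 8 of the 11 were at least 2-fold under H3, in K79me3 7 and in K18ac 4. The shares of all genes were 9.22% in K4me3, 21.2% in K36me3, 11.5% in K79me3 and 3.19% in K18ac.

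In the Rgt1 arm of 10 genes the median level was 0.66 in K4me3, -0.20 in K18ac, 0.55 in K36me3 and 0.33 in K79me3, against all-gene medians of 0.37, 0.22, -0.13 and -0.04. In K4me3 3 of the 10 were at least 2-fold over H3, as were 22.5% of all genes, so this share is near the background (the kinase genes YCK2 and YCK1 at 1.37 and 1.32, and the corepressor gene TUP1 at 1.23). The gene at least 2-fold under H3 was MTH1, whose product holds Rgt1 on HXT promoters when glucose is scarce, at -1.72 (-2.30 to -1.13), with K18ac at -1.38, K36me3 at -2.12 and K79me3 at -1.81. In the Snf1 and Mig1 arm of 11 genes the median K4me3 was 0.69 and none was 2-fold under H3. With 9.22% of all genes 2-fold under H3 in K4me3, the counts of both arms are near the background. The repressor gene MIG1 stood at 1.07 and the kinase subunit gene GAL83 at 1.06.

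Among 16 genes of glucose-repressed carbon metabolism 9 had K4me3 at least 2-fold under H3 (background 9.22%), with a median of -1.21. The lowest were the activator genes SIP4 at -2.96, CAT8 at -2.67 and ADR1 at -2.47, and IDP2, for cytosolic isocitrate dehydrogenase, at -2.06. Of 4 tested genes for hexose kinases and entry to glycolysis none was 2-fold under H3 in K4me3, which is near that background. PGI1, for phosphoglucose isomerase, stood at 1.53. The hexokinase gene HXK1, with 9 K4me3 and 28 H3 reads, had too few for that count, and its K36me3 and K79me3 stood at -2.68 and -1.80. Highly transcribed glycolytic genes had a median K4me3 of 0.68 and a median K79me3 of -1.68. In K79me3 8 of 9 tested were at least 2-fold under H3 (background 11.5%), among them PDC1 at -2.60 and ADH1 at -2.27. HXT1, at -0.76 in K79me3, and HXT3, at -0.08, were not as low.

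Over the 29 WT H3 libraries of at least 10000 reads, the pattern of each member was compared with 5430 other genes by Pearson's r of log2 library shares, as a description of libraries that share antibodies and depth. HXT1 was most like FET4 (0.91), PSA1 (0.85) and YEF3 (0.84), and HXT3 most like AHC1 (0.73). HXT5 was most like YNL033W (0.85), DAK2 (0.84) and the transporter gene HXT6 (0.83), and HXT4 like ROG3 (0.78) and GAL10 (0.76). The remaining first places were YEH1 for HXT2 (0.71), YEL076C for HXT8 (0.79), YNR064C for SNF3 (0.84) and VHS3 for RGT2 (0.80). Among the members the highest values were 0.60 between HXT2 and HXT8, 0.58 between HXT1 and RGT2, 0.57 between HXT5 and SNF3 and 0.55 between HXT4 and SNF3, and the glucose-induced pair HXT1 and HXT3 had 0.01.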

How the data were processed

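Counts deposited by the authors give, per nucleosome of the atlas, the reads of every library as unnormalized whole numbers. Formaldehyde fixation and digestion with micrococcal nuclease are described per the labels' protocols. Bowtie2 and the build sacCer3 are named in the submitters' processing notes. The sources used here do not state the Bowtie2 version, how duplicates were treated or how reads were assigned to nucleosomes, and kept duplicates would make the intervals too narrow. Input was read as material of the first antibody without a second one, which the labels do not spell out.

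Gene positions came from a RefSeq gene table, with the strand taken from the systematic name. Reads were summed over the window of each of 5989 genes, divided by the library total and compared as log2 ratios with 0.5 reads added. Exact intervals (Clopper-Pearson, on the share of both counts) were tested on simulated data. Intervals of a difference between 2 genes were exact conditional ones for the odds ratio. Genes needed 50 reads over both libraries. Values by zone used at least 10 H3 reads summed over 4 strains, and changes by zone and end ratios at least 10 reads in all. Members, roles and lists were chosen with earlier results of these data known. Named genes are all members, the 3 genes most correlated with each, and up to 4 genes per list and mark past 2-fold, largest first. Alternatives covered the added reads, scaling, the window, the H3 library, the minimum of reads and other antibody combinations. Python 3.11.15, numpy 2.4.6, pandas 2.3.3, scipy 1.17.1 and matplotlib 3.10.9 were used.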

Additional observations from a re-analysis of the deposited data

How the results depend on the processing

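Of 1274 alternative values for 226 results, 1194 lay within the range set for the reported value and 75 lay outside it. A further 5 reversed the sign of a reported value of at least 2-fold, and sign changes of smaller values were not counted apart. The range was the counting interval, for counts 1.5 times the value, and for medians of pairs with K4me3 the lowest to the highest pair. The difference between glucose-induced and glucose-repressed members stayed above 2-fold in K4me3 under the alternatives that can move it, from 1.499 with HXT2 and HXT4 as the repressed members to 2.35 over the first 1000 bp; scaling shifts all genes of a library alike and cannot change it. It ran from 0.50 to 1.17 in K36me3, from 0.25 to 0.92 in K79me3 and from -0.55 to 0.32 in K18ac.

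The count of members at least 2-fold under H3 changed to 1 in K18ac with median-ratio scaling or the ORF alone, and to 1 in K79me3 with the ORF alone, the first 1000 bp or no nucleosomes of another gene. Strain changes past 2-fold numbered 6 over the first 1000 bp, against 2. Members with a higher K18ac body ratio than bar1 numbered 3 in set2 with the 5-prime zone to 750 bp or with the last over first 500 bp, against 5, and 2 in eaf3 with the last over first 500 bp, against 4. Members with more late than early K4me3 reads numbered 4 in H3K36R, against 2. With at least 200 reads per gene, 0 other hexose transporters, 0 genes of the Rgt1 arm and 0 glucose-repressed genes were 2-fold under H3, since genes low in K4me3 then lack reads. With no minimum 1 gene among the hexose kinases was. The K4me3 change in the first 500 bp of HXT8 was -0.40 in set2 as the median over combinations, and -0.37 in set2 and -0.91 in eaf3 with K4me3 in both steps. That of HXT5 in eaf3 was -0.12 both as the median and with K4me3 in both steps. The cause was not tested. The last over first 500 bp, the other strains for that ratio and the other combinations for the first 500 bp were chosen after seeing the data. No paired analysis was possible because each group holds 1 library, and no replicate could be left out. Counts of 0 to 5 reads per gene in pair libraries and in the first 500 bp of HXT5 and HXT8 limit what can be read there.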
